A study of Mus musculus with 8 samples.

Results

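The imprinted genes Igf2, Igf2r, H19, Peg3, Peg10, Mest, Grb10, Plagl1, Snrpn and Meg3 were followed in undifferentiated spermatogonia (Aundiff) recovering from busulfan damage. They were chosen by name as imprinted genes, with earlier results of these data known, and all 10 were among the 14608 genes of the count table. CTRL samples came from untreated adult wild-type C57BL/6J mice of 6 to 8 weeks. BU samples came from mice of the same strain and age taken at day 10 (D10) after a single dose of 10 mg/kg busulfan. The study describes busulfan as an alkylating drug that kills undifferentiated as well as differentiating spermatogonia. In both groups testis cells were sorted as E-cadherin+, CD49f+ (α6-integrin) and c-KIT-, and RNA of the sorted cells was amplified, sequenced and counted per gene. There were 4 libraries in each group, and the BU libraries carry the numbers 2 to 5 of their columns.

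Imprinted genes are transcribed mainly from the copy inherited from a single parent, because DNA methylation laid down in the egg or in the male germline marks the copies differently. Many act on growth through insulin-like growth factor (IGF) signalling, in which the ligand IGF2 comes from the paternal copy in most tissues and its clearance receptor IGF2R from the maternal copy. Male germ cells erase the marks of both parents and then carry the paternal pattern on both copies, so the usual parental roles describe somatic tissue and not spermatogonia. C57BL/6J is an inbred strain and the counts are per gene, so the copies cannot be told apart in these data.

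Total counts ran from 17181963 to 24243985 per library, and the 10 imprinted genes had between 67 reads (Plagl1) and 4834 reads (Igf2) in a library. The 18 mitochondrial genes took up 39.8% (CTRL 2) to 45.6% (BU 5) of these totals, to which CPM values are scaled. All 12 listed markers of undifferentiated spermatogonia were measured and summed to 2013 to 2281 CPM in CTRL and 1748 to 1951 CPM in BU. Of these markers 5 were called lower (Zbtb16, Foxo1, Lin28a, Nanos3 and Utf1) and none higher. Without a call, Gfra1, Etv5 and Itga6 had adjusted p-values under 0.05 upward, and Sall4 and Ddx4 downward. With the adjusted p alone 3 of the 12 were thus higher and 7 lower, against 32.1% of all genes in either direction. Over all genes tested 6.80% were called higher and 6.54% lower by the rule given below, the shares beside the marker counts here. Among markers of other testis cells, all 5 measured of 12 listed immune genes were called higher in BU, where their summed level was 26.8 to 39.8 CPM (reads of a gene scaled to the size of the library by TMM factors) against 11.6 to 19.2 CPM in CTRL. The 7 measured of 12 Sertoli genes summed to 27.9 to 36.1 CPM in CTRL and 34.5 to 42.3 CPM in BU. Of these Sertoli genes 3 were called higher (Sox9, Cldn11 and Vim), and Wt1, Gata4, Amhr2 and Aard were not called. The 3 measured of 10 peritubular and stromal genes summed to 54.4 to 58.8 CPM in CTRL and 33.7 to 37 CPM in BU, where Col1a1 was called lower and Pdgfra higher. The 6 measured of 8 endothelial genes summed to 37.4 to 42.6 CPM in CTRL and 48.9 to 60.4 CPM in BU. Of these 6 only Kdr was called, higher with a log2 fold change of 1.47 and a limma adjusted p of 1.8e-06. Log2 fold changes were above 0 for 4 of the 6 and below 0 for 2. The 1 measured of 9 Leydig genes, Star, had 5.90 to 9.04 CPM in CTRL and 6.62 to 7.74 CPM in BU. The listed Sertoli genes Amh, Rhox5, Dhh, Inhba and Fshr and all listed Leydig genes but Star were not among the measured ones. The part of such cells, or of a shift within the sorted population, in the levels below was not tested. In bulk samples such as these, fewer cells of a type and less RNA per cell cannot be told apart.

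Igf2 rose 2.08-fold in BU, Mest 2.16-fold, Plagl1 2.96-fold and Grb10 1.84-fold, and Peg10 fell 1.99-fold. A gene was called where its Benjamini-Hochberg adjusted p over all genes was under 0.05 in limma-voom and its fold change was over 1.5. By this rule 5 of the 10 imprinted genes were called, against 13.3% of all genes tested. Because the genes were chosen with earlier results known, this share is a description of these genes. The 4 called higher compare with 6.80% of all genes called in that direction, and the 1 called lower with 6.54%. With the adjusted p alone 8 of the 10 passed, 6 upward and 2 downward, against 32.1% of all genes. CPM of the CTRL and BU libraries did not overlap for 9 of the 10, against 30.3% of all genes. The median log2 fold change (BU minus CTRL) of the 10 was 0.41, and that of all genes was -0.01. The number called was 5 in each of the 8 fits that left out 1 library.

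**Figure D1:**
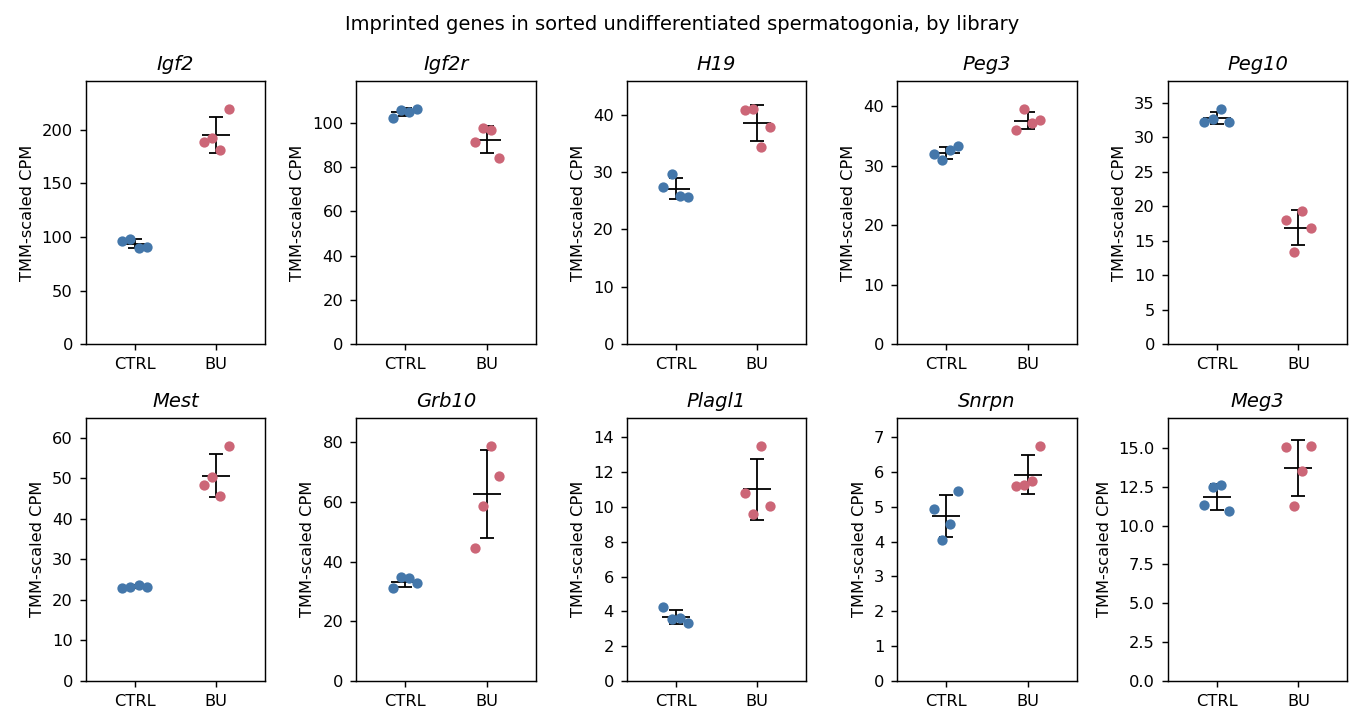
Level of each imprinted gene in TMM-scaled CPM (vertical axis, from 0) in the 4 CTRL and 4 BU libraries, with 1 point per library, the mean as a bar and the SD as whiskers. The groups are apart for every gene but Meg3, where BU reached down to 11.2 CPM and CTRL up to 12.6 CPM.

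Promoter windows of the genes called higher are shown because each of these genes has at least 1 window with TGCCGC, the core that the imprint-protecting zinc finger protein ZFP57 binds when its CG is methylated. RefSeq windows (build GRCm38.p6) of 300 bases, from 250 before to 50 after a transcript start, were matched for 8 of the 10 genes and gave 18 windows. H19 and Peg10 had no matched window. Peg10 is the only 1 of the 10 called lower, so no gene called lower was searched. Capitals mark TGCCGC or its reverse complement GCGGCA. Each window is written 5′ to 3′ on the strand of its gene.
Igf2, chr7:142661222-142661521, minus strand: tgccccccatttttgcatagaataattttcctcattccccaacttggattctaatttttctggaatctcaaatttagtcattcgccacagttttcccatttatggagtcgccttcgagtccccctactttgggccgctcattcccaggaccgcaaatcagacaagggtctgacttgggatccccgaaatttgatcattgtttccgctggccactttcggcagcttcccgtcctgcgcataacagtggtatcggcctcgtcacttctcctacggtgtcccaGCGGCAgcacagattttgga
Mest, chr6:30737800-30738099, plus strand: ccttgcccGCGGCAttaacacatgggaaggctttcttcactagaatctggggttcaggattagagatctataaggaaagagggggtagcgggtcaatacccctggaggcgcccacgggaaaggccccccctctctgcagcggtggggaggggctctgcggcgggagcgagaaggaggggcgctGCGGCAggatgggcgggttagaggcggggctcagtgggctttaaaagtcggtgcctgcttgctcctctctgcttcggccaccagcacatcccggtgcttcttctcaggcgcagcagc
Plagl1, chr10:13090582-13090881, plus strand: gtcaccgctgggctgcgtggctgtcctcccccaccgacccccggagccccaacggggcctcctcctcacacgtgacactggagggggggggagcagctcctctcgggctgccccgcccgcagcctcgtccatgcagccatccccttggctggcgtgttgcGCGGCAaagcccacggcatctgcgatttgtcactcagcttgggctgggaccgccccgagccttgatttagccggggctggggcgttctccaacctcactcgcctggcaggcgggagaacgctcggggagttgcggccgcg
Grb10, chr11:12037371-12037670, minus strand: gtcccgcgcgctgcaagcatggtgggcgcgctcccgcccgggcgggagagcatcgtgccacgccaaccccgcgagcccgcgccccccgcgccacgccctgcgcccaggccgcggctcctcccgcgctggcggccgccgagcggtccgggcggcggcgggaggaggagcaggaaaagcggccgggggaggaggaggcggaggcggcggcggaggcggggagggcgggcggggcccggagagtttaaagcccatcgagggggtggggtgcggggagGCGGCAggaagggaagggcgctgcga

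The Mest window held the core in 2 places and the other 3 windows in 1 place each. Of the 18 windows 7 held it (38.9%), against 11.6% of 32851 promoter windows of the same length over the genome. A pair of those 7 windows is nearly the same stretch of Mest at neighbouring start sites, and the core was also found in 1 of 2 Meg3 windows and 1 of 4 Snrpn windows. Of the 4 Igf2 windows only the one shown held it. GCCATNTT, the core bound by the zinc finger protein YY1, was in none of the 18 windows and in 6.05% of all windows. The windows shown contained 14 (Igf2), 17 (Mest), 26 (Plagl1) and 45 (Grb10) CG dinucleotides, and the other 3 Igf2 windows 7, 24 and 2. The median was 11 over the 18 windows and 7 over all windows. The windows shown were picked for a motif that itself holds a CG. Both motifs were searched on both strands. A match is a description of the letters and not a bound site.

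Igf2 encodes the fetal growth factor IGF2, which signals through the IGF1 receptor and the insulin receptor. The gene lies on chromosome 7 (142650766 to 142666816, minus strand, GRCm38) with 5723 bases of exon. Its level was 96.1, 98.4, 90.1 and 90.4 CPM in CTRL 1 to CTRL 4. In BU 2 to BU 5 it was 188, 193, 181 and 219 CPM. The lowest BU library therefore lay far above the highest CTRL library. The log2 fold change was 1.06 ± 0.07 (SE), with a 95% interval of 0.92 to 1.19 and a limma adjusted p of 4.5e-09. Igf2 varied little within groups, with a coefficient of variation of 4.43% in CTRL and 8.49% in BU against medians of 9.37% and 12.5% over all genes. In the annotation 62.8% of the exon bases of Igf2 are shared with Gm49394, a read-through gene on the same strand, and 1.71% with the antisense gene Igf2os. How reads in shared bases were assigned is not given in the sources used here.

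H19 is a long noncoding RNA downstream of Igf2 that shares enhancers with it and is the host of a microRNA. It lies on chromosome 7 (142575529 to 142578143, minus strand). CTRL libraries had 27.3, 29.6, 25.7 and 25.6 CPM of H19, and BU libraries 40.8, 40.9, 34.3 and 37.9 CPM. All BU libraries were thus above all CTRL libraries. The log2 fold change of 0.51 ± 0.09 (SE) had a limma adjusted p of 0.000206, but its fold change of 1.43 was under 1.5, so H19 was not called. The change of Igf2 was larger than that of H19. Reads of Igf2 per read of H19 were 3.51, 3.32, 3.50 and 3.52 in CTRL and 4.61, 4.71, 5.28 and 5.78 in BU. The log2 ratio differed by 0.55 ± 0.08 (SE) between groups (exact permutation test, two-sided, p = 0.0286, adjusted p = 0.0429 over 3 gene pairs, n = 4 per group). This p is the smallest that 70 assignments of the libraries allow.

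Igf2r, the mannose 6-phosphate receptor that takes IGF2 to lysosomes, lies on chromosome 17 (12682406 to 12769664, minus strand). It had 102, 106, 105 and 106 CPM in CTRL and 91.3, 97.4, 96.6 and 84.3 CPM in BU. The BU libraries were all slightly below the CTRL libraries. The log2 fold change was -0.18 ± 0.06 (SE) with a limma adjusted p of 0.0326, short of the fold threshold. The adjusted p was over 0.05 in 6 of the 8 fits that left out 1 library (up to 0.109, without BU 5). Reads of Igf2 per read of Igf2r were 0.939, 0.930, 0.860 and 0.852 in CTRL and 2.06, 1.98, 1.88 and 2.60 in BU. The log2 ratio rose by 1.24 ± 0.11 (SE) (exact permutation test, two-sided, p = 0.0286, adjusted p = 0.0429 over 3 gene pairs, n = 4 per group). Again this p is the smallest that 70 assignments allow. It was fixed by the values above, because Igf2 lay higher and Igf2r lower in every BU library than in any CTRL library.

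**Figure D2:**
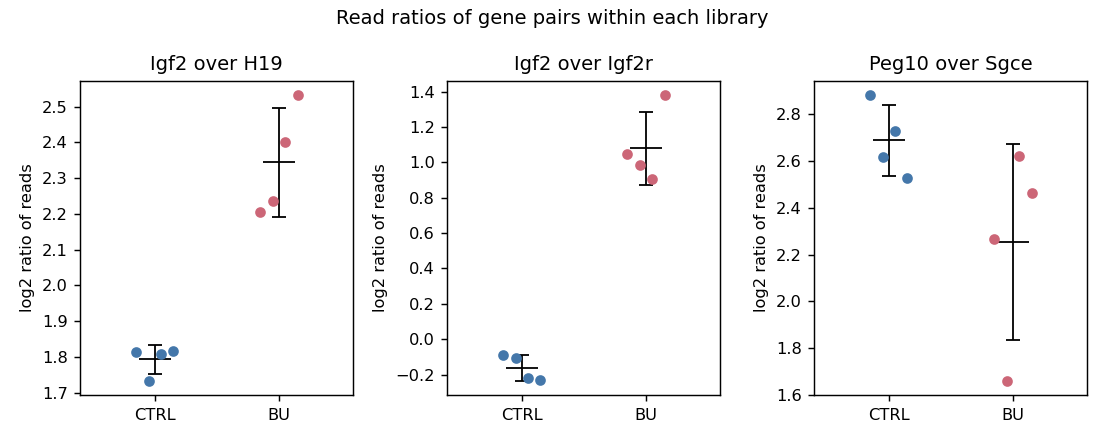
Log2 ratio of reads of 2 genes within each library (vertical axis) for Igf2 over H19, Igf2 over Igf2r and Peg10 over Sgce, in CTRL and BU, with 1 point per library, the mean as a bar and the SD as whiskers. The groups are apart for the first and second pair, and BU 4 reaches into the CTRL range for the third.

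Mest, also known as Peg1, encodes a membrane protein of the alpha/beta hydrolase family and is transcribed in growing embryonic tissue. It lies on chromosome 6 (30723547 to 30748465, plus strand). The CTRL libraries were tightly placed at 23.0, 23.3, 23.7 and 23.1 CPM. In BU the levels were 48.5, 50.4, 45.6 and 58.0 CPM. All BU libraries were above all CTRL libraries. The log2 fold change was 1.11 ± 0.09 (SE), 95% interval 0.93 to 1.29, with a limma adjusted p of 5.0e-08. Of the exon bases of Mest 23.1% are shared with Copg2 on the other strand. Copg2, a coat protein gene of the secretory pathway, had 56.4 to 59.0 CPM in CTRL and 58.3 to 69.96 CPM in BU, with a log2 fold change of 0.12 ± 0.07 (SE) and a limma adjusted p of 0.234.

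Plagl1 encodes the zinc finger transcription factor ZAC1, which in mouse regulates a group of other imprinted genes. It lies on chromosome 10 (13060504 to 13131694, plus strand). It was low, at 4.23, 3.56, 3.60 and 3.33 CPM in CTRL, and rose to 10.8, 9.61, 13.5 and 10.1 CPM in BU. The groups were far apart. Its log2 fold change of 1.56 ± 0.17 (SE), 95% interval 1.20 to 1.93, was the highest of the 10, with a limma adjusted p of 2.8e-06. Per kilobase of exon Plagl1 had 0.471 CPM in CTRL, and 4.54% of the listed genes had no more than this.

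Grb10 encodes an adaptor that binds the activated insulin and IGF1 receptors and dampens their signalling. It is expressed from the maternal copy in most tissues and from the paternal copy in neurons, and lies on chromosome 11 (11930508 to 12038683, minus strand). It stood at 31.2, 34.7, 34.6 and 32.7 CPM in CTRL. BU libraries spread from 44.5 CPM in BU 2 over 58.6 CPM in BU 3 and 68.7 CPM in BU 5 to 78.8 CPM in BU 4. BU 2 was still above every CTRL library, but the coefficient of variation in BU was 23.4%, against 5.0% in CTRL. The log2 fold change was 0.88 ± 0.13 (SE), 95% interval 0.61 to 1.16, with a limma adjusted p of 6.1e-05. A test against a fold of 1.5 itself (limma treat) kept Igf2, Mest, Plagl1 and Peg10 and left Grb10 at an adjusted p of 0.391.

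Peg10 encodes a protein derived from a retrotransposon and is required for the placenta in mouse. It lies on chromosome 6 (4747306 to 4760517, plus strand). In CTRL it stood at 32.2, 32.6, 34.0 and 32.3 CPM. BU libraries had 18.02, 13.4, 19.3 and 16.8 CPM, about 2 times lower, with BU 3 the lowest. It was the only 1 of the 10 called lower, with a log2 fold change of -0.99 ± 0.11 (SE), 95% interval -1.21 to -0.77, and a limma adjusted p of 2.0e-06. Sgce, the epsilon-sarcoglycan gene that starts next to Peg10 on the other strand, had 4.37 to 5.59 CPM in CTRL and 3.04 to 4.23 CPM in BU, with a log2 fold change of -0.51 ± 0.18 (SE), a limma adjusted p of 0.0427 and no call. Peg10 reads per Sgce read were 7.37, 6.14, 6.62 and 5.77 in CTRL and 4.82, 3.16, 6.15 and 5.52 in BU. The groups overlapped, and the log2 ratio difference of -0.44 ± 0.22 (SE) missed the threshold (exact permutation test, two-sided, p = 0.0857, adjusted p = 0.0857 over 3 gene pairs, n = 4 per group). Without BU 3 the difference was -0.24.

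Peg3, Snrpn and Meg3 were not called. Peg3, a large zinc finger protein gene on chromosome 7 (6703892 to 6730431, minus strand), had 31.9, 30.9, 32.7 and 33.3 CPM in CTRL and 35.9, 39.5, 37.1 and 37.7 CPM in BU. The groups did not overlap, but the log2 fold change was only 0.22 ± 0.07 (SE), with a limma adjusted p of 0.0278 that was 0.05 or more in 5 of the 8 fits leaving out 1 library (up to 0.0736, without CTRL 2). Snrpn, which encodes the splicing protein SmN, lies on chromosome 7 (59982495 to 60140219, minus strand). It had 4.94, 4.04, 4.50 and 5.46 CPM in CTRL and 5.58, 5.62, 5.72 and 6.74 CPM in BU. Its log2 fold change of 0.31 had a 95% interval of -0.04 to 0.65 and a limma adjusted p of 0.165. Of its exon bases 27.3% are shared with genes on the same strand, among them Snurf. Meg3, a long noncoding RNA from the maternal copy of its domain on chromosome 12 (109541001 to 109571726, plus strand), had 11.3, 12.5, 12.6 and 10.9 CPM in CTRL and 15.03, 11.2, 13.5 and 15.1 CPM in BU. Its groups overlapped, with a log2 fold change of 0.19, a 95% interval of -0.07 to 0.44 and a limma adjusted p of 0.271.

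Levels were compared between genes per kilobase of annotated exon. In CTRL, Igf2 led with 16.4 ± 0.7 CPM per kb (SD, n = 4). H19 with 11.4 ± 0.8 and Igf2r with 11.1 ± 0.2 CPM per kb came next and overlapped. Mest had 5.90 CPM per kb, Peg10 4.92 and Grb10 3.66, each with ranges apart from its neighbours. Peg3 (2.42 CPM per kb) and Snrpn (2.19 CPM per kb) overlapped again, and Meg3 (0.654 CPM per kb) and Plagl1 (0.471 CPM per kb) were last. In BU, Igf2 reached 34.1 ± 2.9 CPM per kb, a level that exceeded or equalled that of 95.9% of the listed genes, against 87.7% in CTRL. H19 (16.2 ± 1.3 CPM per kb) and Mest (12.8 ± 1.3 CPM per kb) followed with ranges that overlapped, so that Mest stood above Igf2r (9.79 ± 0.64 CPM per kb) in BU and below it in CTRL. Peg10 went from the fifth to the eighth place, where its 2.53 ± 0.38 CPM per kb overlapped with Peg3 and Snrpn. Plagl1 (1.41 CPM per kb) stood above Meg3 (0.759 CPM per kb) in BU.

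**Figure D3:**
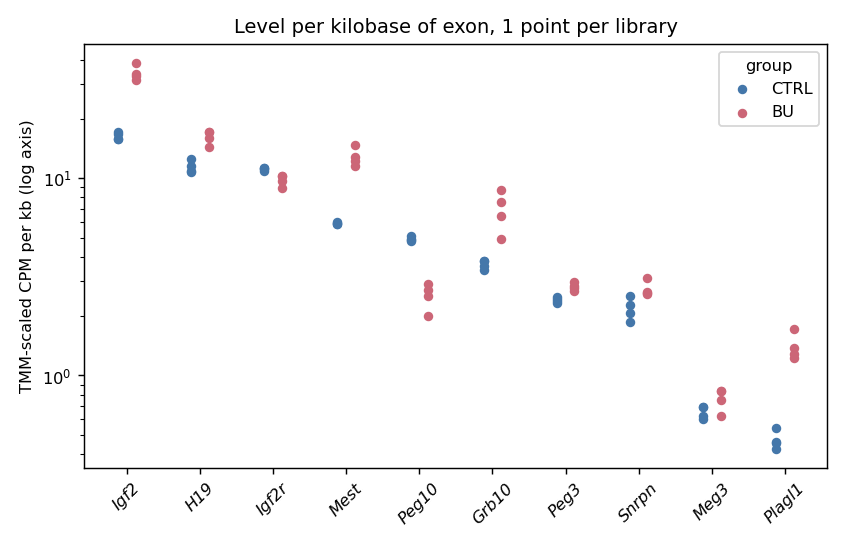
Level per kilobase of exon (TMM-scaled CPM per kb, log axis) of the 10 imprinted genes, ordered by their mean in CTRL, with 1 point per library. Igf2 is the highest in both groups, Plagl1 moves from 0.471 to 1.41 CPM per kb, and Peg10 drops to the level of Peg3 and Snrpn.

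By parental origin in somatic tissue, 4 of the 6 paternally expressed genes (Igf2, Peg3, Peg10, Mest, Plagl1, Snrpn) were called, 3 higher and 1 lower, beside 6.80% and 6.54% of all genes. None of the 3 maternally expressed genes (H19, Igf2r, Meg3) was called, though H19 and Igf2r had an unadjusted limma p of 1.4e-05 and 0.0092 and edgeR and DESeq2 also called none of them. Grb10, from the maternal copy in most tissues and the paternal copy in neurons, was placed in neither class. It was called higher. Whether the parental classes differ was not tested.

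A wider list of imprinted genes held calls in both directions. Of 61 further imprinted genes 36 were measured, and 3 were called higher and 5 lower, a share to be read against the 13.3% of all genes. Their median log2 fold change was -0.09. Among the 18 measured genes listed as paternally expressed, Zim2 included, 1 was called higher and 2 lower. Of the 18 measured genes listed as maternally expressed 2 were called higher and 3 lower. The parental class of each gene was taken from the list and was not tested.

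Phlda2, a placental growth restraint gene in mouse, had the lowest log2 fold change of the 36. Its level was 7.23, 5.21, 5.82 and 5.46 CPM in CTRL and 1.73, 1.28, 1.34 and 1.52 CPM in BU, with a log2 fold change of -2.01 ± 0.24 (SE) and a limma adjusted p of 5.6e-06. Slc38a4, an amino acid transporter gene, fell by 0.76 on the log2 scale (limma adjusted p = 0.0138), a call that was lost without CTRL 4. Gnas, which encodes the stimulatory G protein alpha subunit, rose from 7.18, 8.03, 8.61 and 7.30 CPM to 17.2, 12.6, 14.0 and 12.8 CPM. Its log2 fold change was 0.85 ± 0.13 (SE), with a limma adjusted p of 0.000125, and 21.97% of its exon bases are shared with genes on the other strand, Nespas among them. Ago2, the slicing Argonaute, rose by 0.65 ± 0.17 (SE) on the log2 scale, with a limma adjusted p of 0.0079, and kept its call in 5 of the 8 fits that left out 1 library (lost without CTRL 1, BU 4 or BU 5).

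**Figure D4:**
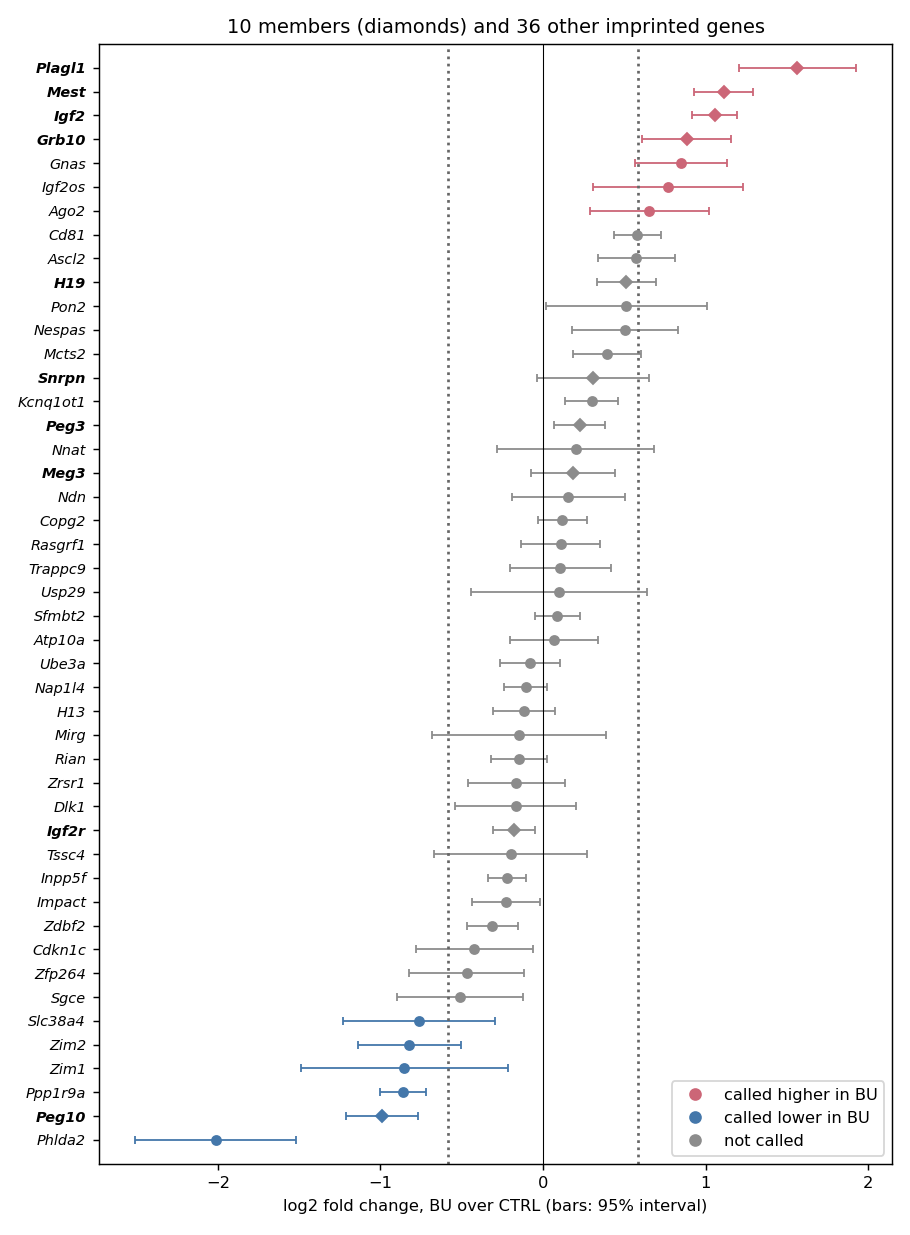
Log2 fold change, BU over CTRL (horizontal axis), of the 10 imprinted genes (diamonds, bold names) and 36 further imprinted genes (circles), with 95% intervals, in order of size. Dotted lines mark a fold of 1.5 in either direction, and colours mark the calls. Plagl1, Mest, Igf2 and Grb10 are the top 4 of the list, and Peg10 is next to last above Phlda2.

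Genes that lie beside the imprinted genes were then described domain by domain. Of 30 measured neighbours in 9 domains, 2 were called higher and 3 lower, a share near the 13.3% of all genes, and the median log2 fold change was -0.02. Of these 5 called genes 4 (Igf2os, Zim1, Zim2 and Ppp1r9a) are also counted among the 8 further imprinted genes called. Around Igf2 and H19, Igf2os was called higher (log2 fold change 0.77 ± 0.22 (SE), limma adjusted p = 0.012) with 4.80, 5.63, 3.68 and 3.16 CPM in CTRL and 5.41, 9.77, 6.19 and 6.80 CPM in BU. Its groups overlapped, and leaving out CTRL 4 or BU 3 ended the call. Of its exon bases 23.2% lie on those of Igf2 or Gm49394 on the other strand, and with no stated strand setting the reads of the 2 strands cannot be told apart. Lsp1, an actin-binding protein gene of leukocytes, was called higher too (0.75 ± 0.25 (SE), limma adjusted p = 0.0272), at only 1.19 to 2.13 CPM in CTRL and 2.42 to 2.99 CPM in BU. This call held in 3 of the 8 fits that left out 1 library (lost without CTRL 1, CTRL 3, CTRL 4, BU 3 or BU 5), and the immune genes above moved the same way. Mrpl23, also measured in this domain, had a log2 fold change of -0.33 and a limma adjusted p of 0.205.

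In the Peg3 domain Zim1 and Zim2 were called lower, and Peg3 itself was not called. Zim2 is annotated as a processed transcript and not as a protein-coding gene. Zim2 went from 8.56, 11.4, 9.51 and 9.86 CPM in CTRL to 5.30, 5.70, 6.29 and 4.62 CPM in BU, with a log2 fold change of -0.82 ± 0.15 (SE) and a limma adjusted p of 0.000484. Zim1 had a log2 fold change of -0.85 ± 0.30 (SE) and a limma adjusted p of 0.0392, but its groups overlapped and the call held in only 2 of the 8 fits that left out 1 library (kept without CTRL 4 or BU 2). Near Peg10, Ppp1r9a, which encodes the actin-binding protein neurabin, fell from 76.3, 71.6, 71.2 and 76.6 CPM to 40.4, 39.9, 40.5 and 42.04 CPM. Its log2 fold change of -0.86 ± 0.07 (SE), with a limma adjusted p of 4.6e-08, was close to that of Peg10. Casd1 and Pon2, also measured in this domain, had log2 fold changes of 0.26 and 0.51 and adjusted p-values of 0.295 and 0.109.

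No neighbour was called around the other genes. In the Mest domain Copg2 and Cep41 had log2 fold changes of 0.12 and 0.10, beside 1.11 for Mest. In the Plagl1 domain Phactr2, Ltv1 and Sf3b5 had 0.49, 0.15 and -0.28, beside 1.56 for Plagl1. In the Grb10 domain Ikzf1, Fignl1 and Cobl had 0.53, 0.42 and -0.10. Both measured neighbours of Igf2r, Mrpl18 (0.54) and Pnldc1 (-0.42), had adjusted p-values under 0.05 in opposite directions. The 3 neighbours of Snrpn, which were Ndn (0.15), Atp10a (0.07) and Ube3a (-0.08), had limma adjusted p-values from 0.51 to 0.735. Of the 5 neighbours of Meg3 only Begain, at -0.54, had a limma adjusted p under 0.05 (0.0098).

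**Figure D5:**
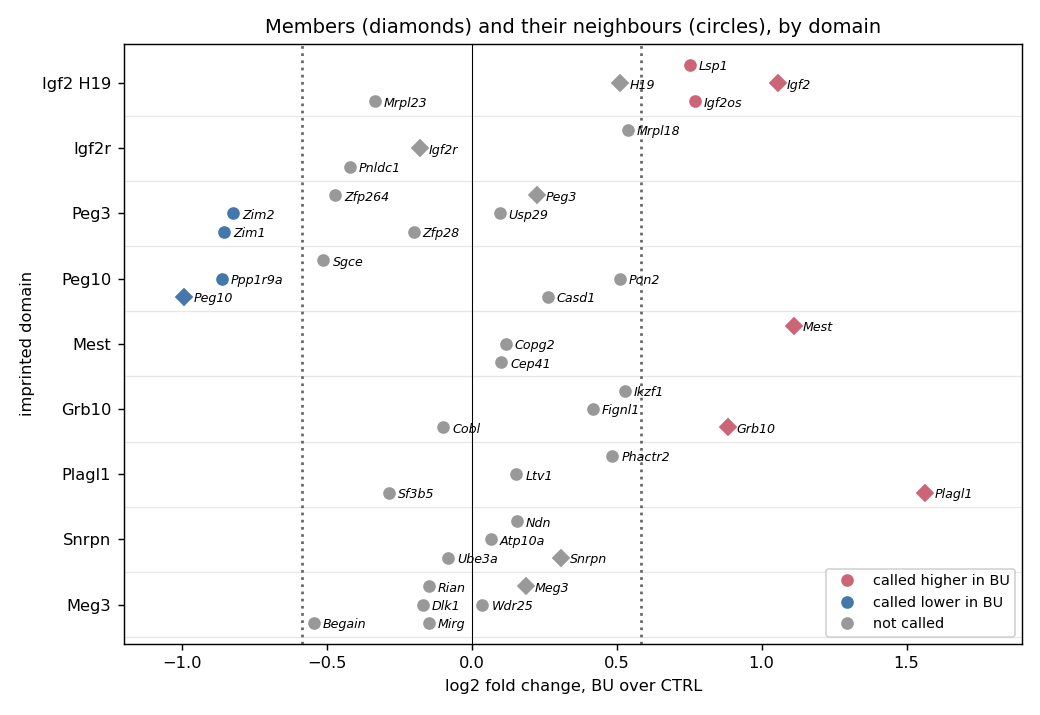
Log2 fold change, BU over CTRL (horizontal axis), of the imprinted genes (diamonds) and their measured neighbours (circles), in 1 row per domain with a small vertical offset for legibility. Dotted lines mark a fold of 1.5 and colours the calls. Mest stands apart from its 2 neighbours near 0 and Plagl1 from neighbours between -0.28 and 0.49. Ppp1r9a lies beside Peg10, with Casd1 and Pon2 above 0. Around Igf2, Igf2os lies at 0.77 and Mrpl23 at -0.33.

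The IGF axis around Igf2 held values in both directions. Of the 5 measured IGF ligands and receptors only Igf2 was called, beside 13.3% of all genes. The median log2 fold change of the 5 was -0.18. Igf1r, the receptor that carries the growth signal of both IGFs, had 373, 355, 350 and 355 CPM in CTRL and 262, 279, 265 and 248 CPM in BU. All BU libraries were lower, with a log2 fold change of -0.44 ± 0.05 (SE) and a limma adjusted p of 3.4e-06, under the fold threshold. Insr, the insulin receptor gene, had 20.2 to 22.9 CPM in CTRL and 13 to 18.5 CPM in BU, with a log2 fold change of -0.46 ± 0.11 (SE) and a limma adjusted p of 0.00384, again with no call. Igf1, the other ligand, was near the detection limit at 1.52, 2.60, 1.63 and 1.58 CPM in CTRL and 3.4, 0.48, 2.48 and 2.13 CPM in BU, and its log2 fold change of -0.17 ± 0.46 (SE) had a limma adjusted p of 0.812. Per kilobase of exon Igf1 had 0.185 CPM in CTRL and 0.214 CPM in BU, against 16.4 and 34.1 CPM for Igf2.

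Of the 8 measured IGF binding proteins and IGF2 mRNA-binding proteins 1 was called higher and 2 lower, beside 13.3% of all genes called. With the adjusted p alone 5 of the 8 passed, 3 upward and 2 downward, against 32.1% of all genes. The 3 upward were Igfbp4, Igf2bp1 and Igfbp5 (log2 fold change 0.58 ± 0.16 (SE), limma adjusted p = 0.011). Igfbp4, a secreted protein that holds IGFs away from their receptor, rose from 4.56, 5.05, 4.71 and 3.41 CPM to 6.10, 11.2, 10.4 and 9.17 CPM (log2 fold change 1.08 ± 0.20 (SE), limma adjusted p = 0.000621). Igfbp6, which prefers IGF2 to IGF1, fell from 8.99, 4.68, 9.04 and 6.40 CPM to 2.76, 1.95, 0.93 and 2.13 CPM (log2 fold change -1.97 ± 0.32 (SE), limma adjusted p = 0.000139). Igf2bp2, which binds IGF2 mRNA among others, fell from 37.9 to 41.8 CPM in CTRL to 17.6 to 27.6 CPM in BU (log2 fold change -0.75 ± 0.11 (SE), limma adjusted p = 4.9e-05). Its relative Igf2bp1 had 147 to 160 CPM in CTRL and 172 to 199 CPM in BU, with a log2 fold change of 0.30, a limma adjusted p of 0.000812 and no call.

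Among 6 measured insulin receptor substrates and adaptors Grb10 and Irs1 were called higher, beside 6.80% of all genes called in that direction. Grb10 is among the genes chosen at the start. Irs1, a docking protein of the receptors, rose from 0.95, 1.38, 1.37 and 1.83 CPM to 2.19, 4.95, 4.23 and 2.79 CPM, with a log2 fold change of 1.36 ± 0.32 (SE) and a limma adjusted p of 0.00314. Shc1 at 0.55 and Sh2b1 at -0.33 had adjusted p-values of 0.00108 and 0.0117 and were not called.

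In the mouse network of imprinted genes around Plagl1, 14 of 15 genes were measured. Plagl1, Igf2, Mest, Grb10 and Gnas were called higher and none was called lower, beside 13.3% of all genes called in either direction, and the median log2 fold change was 0.21. Of the 14 genes 8 belong to those chosen at the start, and of the other 6 only Gnas was called. Sgce, at -0.51, had all BU libraries below all CTRL libraries. The network genes Cdkn1c, Dlk1, Ndn and Nnat had log2 fold changes of -0.42, -0.17, 0.15 and 0.20, with adjusted p-values from 0.0705 to 0.543.

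Genes that read or keep imprints were called in 3 of 16 cases, a share near the 13.3% of all genes. Dnmt1, the maintenance DNA methyltransferase, rose from 244, 255, 241 and 228 CPM to 347, 395, 387 and 380 CPM, with a log2 fold change of 0.64 ± 0.05 (SE) and a limma adjusted p of 1.1e-07. Uhrf1, its partner at replicated DNA, rose by 0.77 ± 0.07 (SE) on the log2 scale (limma adjusted p = 3.2e-07). Tet3, which oxidises methylated cytosine, fell from 120 to 128 CPM in CTRL to 68.1 to 97.2 CPM in BU (log2 fold change -0.67 ± 0.09 (SE), limma adjusted p = 1.8e-05). Smchd1, a chromatin protein that silences imprinted clusters, had a log2 fold change of -0.43 ± 0.05 (SE) with a limma adjusted p of 3.0e-06 and no call. Zfp57 itself was low, at 2.66 to 4.78 CPM in CTRL and 4.07 to 5.77 CPM in BU, with a limma adjusted p of 0.301. Zfp445, the other zinc finger protein known to protect imprints in mouse, had 35.5 to 39.3 CPM in CTRL and 34.8 to 38.9 CPM in BU, with a log2 fold change of 0.00 and a 95% interval of -0.16 to 0.16.

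The pattern of Igf2 over the 8 libraries was set beside that of the 9173 other genes with a mean log2 CPM of at least 3, by the root mean square distance of log2 CPM centred on each gene. Mest was the nearest of all, at 0.0565. Mki67, a marker of cycling cells, followed at 0.0599, then Spry4, an inhibitor of receptor kinase signalling, at 0.0788, Zc3hav1l at 0.0909 and Atp1b2, a sodium pump subunit, at 0.0958. The median gene lay at 0.557. Mki67 stood at 499.8, 501.5, 473 and 484 CPM in CTRL and 956, 899, 942 and 1071 CPM in BU. Among the chosen genes Grb10 (0.246), H19 (0.292) and Plagl1 (0.319) came next after Mest, and Peg10 (1.03) was the farthest. Of the 9173 genes 208 lay nearer to Igf2 than Grb10 did, 360 nearer than H19 and 503 nearer than Plagl1. Plagl1 lies below the floor on log2 CPM and is not one of the 9173 genes. The distance describes likeness over these libraries, which fall into the CTRL and BU groups, and carries no test.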

How the data were processed

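The authors sequenced bulk RNA of sorted Aundiff, with cDNA amplified by the Nugen SPIA method and 100 bp paired-end reads. Reads went through RNAsik. Named in the processing notes of the submitters are the build GRCm38 and the tools featureCounts, limma and edgeR. The aligner, annotation release and strand setting are not given in the sources used here, so reads of antisense partners cannot be told apart. The deposited values are raw read counts per gene with no normalisation. The authors deposited another value per gene, its exon length in bp, used for levels per kb. Columns of the authors' own comparison (fold changes, mean expression and p-values) and 8 per-sample CPM columns were not used. Every listed gene reached 1 CPM in at least 4 libraries, so lower genes were not analysed here. 1 symbol stands on 2 rows and is not among the genes described.

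CTRL columns name their replicate. For BU the columns run from 2 to 5 but the labels from 1 to 4, so those columns were assigned to the group. Each group had 4 mice by the methods of the study, though no label links a library to its mouse. P-values measure the spread between libraries, and counting intervals were not needed. Genes were tested with limma-voom (limma 3.58.1, edgeR 4.0.16, R 4.3.3), TMM factors and filterByExpr (0 genes removed), with group alone in the fit, on all 14608 genes. A call needed a Benjamini-Hochberg adjusted p under 0.05 and a fold over 1.5. Read ratios were compared by exact permutation (SciPy). Scripts were tested on simulated data. Alternatives were DESeq2 1.42.0, edgeR quasi-likelihood, other scalings, filters, weights and thresholds, and leaving out each library.

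Named were all 10 genes, the called ones of the further imprinted genes and neighbours (all measured neighbours where a domain had none called), all IGF ligands and receptors, the 4 smallest adjusted p of other lists, and the 5 genes nearest to Igf2. Igfbp5, Casd1, Pon2, Mrpl23, Zfp57, Zfp445, Cdkn1c, Dlk1, Ndn, Nnat and the named cell markers were added after their values were seen. Marker lists are given by counts. The members and lists were chosen with earlier results of these data known. Promoters are from RefSeq (GRCm38.p6) and overlaps from GENCODE M21.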

Additional observations from a re-analysis of the deposited data

Results flagged for a closer look

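In 26 groups of 4 libraries (CTRL and BU for 10 genes and 3 read ratios), 2 held a library far from the other 3 by Dixon's test, where chance gives about 1 in 20. Snrpn had 6.74 CPM in BU 5, and 5.58 to 5.72 CPM in the other BU libraries. The log2 ratio of Igf2 over H19 was 1.73 in CTRL 2, and 1.81 to 1.82 in the other CTRL libraries. In each case the library lay on the side away from the other group. Without BU 5 Snrpn was still not called, and without CTRL 2 the ratio differed by 0.53 between groups, against 0.55 with it.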

How the results depend on the processing

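Of the 10 imprinted genes 5 were called with edgeR, with DESeq2, under each scaling and filter, with sample weights and without any 1 library (range 5 to 5). A fold over 2 called 3 of them (Igf2, Mest and Plagl1), and no fold threshold called 8. All 170 log2 fold changes of these genes under 17 alternatives kept their direction and their side of the call. The alternative with no low-count filter had to equal the main fit, because filterByExpr removed 0 genes. Over all genes 1949 were called, 1242 when 4 or more libraries had to reach a CPM of 5 (11013 genes tested), 375 by limma treat, 664 with a fold over 2, 4693 with no fold threshold, and 1763 to 2021 without 1 library. Fewer genes tested or a stricter threshold give the lower counts by construction. Ratio differences without 1 library ran from 0.49 to 0.60 (Igf2 over H19), 1.14 to 1.30 (Igf2 over Igf2r) and -0.56 to -0.24 (Peg10 over Sgce), given with no test because 3 against 4 cannot reach 0.05. Counts for 7 other lists and the neighbours were equal under the alternatives run. Leaving out libraries for the other named genes was added after seeing the data. No paired analysis was possible because the BU columns do not carry the replicate numbers of the labels. The scalings moved the median log2 fold change of all genes by less than 0.1. Plagl1 (67 to 262 reads) and Snrpn (76 to 141 reads) had the lowest depth of the 10 and the widest intervals.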

Other observations

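Further imprinted genes had a limma adjusted p under 0.05 and a fold change under 1.5, and are named here after their values were seen. Cd81, a tetraspanin gene, and Ascl2, a transcription factor gene, share the distal chromosome 7 cluster with Phlda2. Cd81 had 44.6 to 50.4 CPM in CTRL and 68.4 to 74.3 CPM in BU, with a log2 fold change of 0.58 ± 0.07 (SE) and a limma adjusted p of 5.7e-06. Ascl2 had 10.02 to 11.7 CPM in CTRL and 14.6 to 17.9 CPM in BU (0.57 ± 0.11 (SE), limma adjusted p = 0.000815). Kcnq1ot1, the long noncoding RNA of that cluster, had 128 to 136 CPM in CTRL and 137 to 183 CPM in BU (0.30 ± 0.08 (SE), limma adjusted p = 0.00644). Cdkn1c, a cell cycle inhibitor gene of the cluster, had a log2 fold change of -0.42 ± 0.17 (SE) with overlapping groups and a limma adjusted p of 0.0705. Genes of this cluster therefore had log2 fold changes of both signs, from -2.01 (Phlda2) to 0.58 (Cd81). Inpp5f (-0.22) and Zdbf2 (-0.31), both paternally expressed in somatic tissue, had all BU libraries below all CTRL libraries. Mcts2 (0.40) and Nespas (0.51), paternally expressed too, had all BU libraries above all CTRL libraries.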
